A study of Mus musculus with 14 samples.

Results

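Glutathione transferases and antioxidant enzymes driven by the transcription factor Nrf2 were followed in cultured mouse astrocytes that carried connexin43 (Cx43), lacked it or were treated with an siRNA against it. Cx43 is the main gap junction protein of these cells, encoded by Gja1. The genes were picked by symbol from the annotation of the array: the glutathione transferases Gsta3, Gsta4, Gstm1 and Gstp1, and the antioxidant enzymes Nqo1, Srxn1, Txnrd1, Gclc, Gclm and Hmox1. These 10 genes had 13 features (spotted oligonucleotides) among 33600 on the array, which carries 13661 named genes in all. All 13 features had enough values to be tested, as did 20342 features overall.

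The study labelled 20 ug of total RNA per sample with Cy3 or Cy5 and hybridised it to spotted oligonucleotide arrays. Its 14 samples are 6 from wild-type astrocytes, 4 from Cx43 null astrocytes and 4 from wild-type astrocytes treated with an siRNA against Cx43, for 36 h per the design text and 48 h per the protein protocol. All cultures came from the dissected brains of newborn mice, with each littermate cultured separately in DMEM with fetal bovine serum, and the titles call them cortical. The labels give no strain, and they describe transfection for the siRNA group alone, so the siRNA and the transfection itself cannot be told apart against wild type. No label links samples to cultures, and the spread behind the p-values may therefore be that of technical repeats.

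The 11 samples compared here are wild-type replicates 3, 4 and 6, null replicates 1 to 4 and siRNA replicates 1 to 4. The other 3 wild-type columns stand apart: they correlated at 0.37, 0.38 and -0.02 with the mean of these 11 samples, against 0.894 to 0.948 for each of the 11 with the mean of the remaining 10. A value is on the log2 scale as deposited, where 0 is the median of that sample, and between 17849 and 26826 features per sample had one. Replicates 1 and 2 held fewer values (17849 to 19823) than replicates 3 and above (20757 to 26826), and because no wild-type sample of the 11 lies among replicates 1 and 2, the replicate set was a term of the model. Astrocyte markers were placed by the mean of their highest feature. Other features can lie lower: values ran down to -3.54 over 3 Aqp4 features and to -1.92 over 2 Glul features. Of these markers Fabp7, Vim (8 values) and Glul lay above 99.42%, 99.07% and 99.43% of features. Apoe (5 values), Aqp4, Slc1a3 (4 values) and Aldh1l1 lay above 99.61%, 96.08%, 92.85% and 88.48%. Sox9, Ndrg2 and Aldoc lay above 77.01%, 76.44% and 72.89%, and S100b (7 values) and Slc1a2 above 50.59% and 47.78%. The single Gfap feature had no value in any sample, and Gjb6 had no feature.

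Gja1 itself checks the labels. Its log2 values were 6.08, 7.53 and 4.82 in wild type, -1.17, -1.06, 2.82 and 3.03 in null samples and 1.93, 2.14, 5.47 and 5.70 in samples labelled siRNA. Null samples all lay below wild type, while siRNA replicates 3 and 4 lay inside the wild-type range and replicates 1 and 2 below it. In limma the null samples fell by 3.31 on the log2 scale against wild type (SE 0.58, adjusted p = 0.0401). The siRNA samples differed from wild type by -0.41 (95% interval -1.67 to 0.85, adjusted p = 0.732), so the group is called siRNA below by its label. All 3 wild-type samples belong to the later replicates. Between replicates 1 and 2 and replicates 3 and 4 the Gja1 mean moved from -1.11 to 2.93 in null samples and from 2.03 to 5.58 in siRNA samples (limma interaction 0.49, adjusted p = 0.825). The low siRNA values of replicates 1 and 2 thus go with a shift that null samples share, and a lower Gja1 level than in wild type was not detected in the siRNA samples.

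Nrf2, encoded by Nfe2l2, is held in the cytoplasm and passed to degradation by Keap1 until oxidants or electrophiles modify Keap1. It then enters the nucleus, pairs with small Maf proteins and binds antioxidant response elements near genes that detoxify reactive compounds and supply reducing power. In the brain this programme is best known from astrocytes, which make glutathione and provide neurons with its precursors. Glutathione transferases couple glutathione to electrophiles, and several of them are Nrf2 targets themselves.

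The core of the antioxidant response element was searched in RefSeq promoters of GRCm38.p6, from 250 bases before to 50 after each start site, on both strands. The table held 10 promoters of 7 of these genes (Gstm1 and Txnrd1 with more than 1 start site), and Gsta4, Gclc and Hmox1 had no entry. The core was spelled TGACNNNGC or TGAGNNNGC. TGACNNNGC stood in 12.4% of all 32851 promoters and in 4 of the 10 here, TGAGNNNGC in 17.6% and in 2 of 10, and either of them in 27.8% and in 5 of 10. The form TGANTCAGC, of the same length with more bases fixed, overlaps the other 2 in part. It stood in 1.19% of all promoters and in 2 of 10, those of Srxn1 and Gstp1. The 250 bases before the start site are given for Gsta3, Srxn1 and Nqo1, whose values in all siRNA samples lay above every other sample, and for Gstp1, whose values overlapped between the groups. Sequences run 5′ to 3′ along the gene, and capitals mark each match to the core on either strand.
Gsta3, chr1:21240335-21240584, plus strand: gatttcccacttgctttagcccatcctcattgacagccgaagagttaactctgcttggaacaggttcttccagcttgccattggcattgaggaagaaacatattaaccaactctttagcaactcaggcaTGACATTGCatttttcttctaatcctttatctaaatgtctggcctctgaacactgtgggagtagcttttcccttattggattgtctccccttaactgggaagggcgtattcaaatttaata
Srxn1, chr2:152105274-152105523, plus strand: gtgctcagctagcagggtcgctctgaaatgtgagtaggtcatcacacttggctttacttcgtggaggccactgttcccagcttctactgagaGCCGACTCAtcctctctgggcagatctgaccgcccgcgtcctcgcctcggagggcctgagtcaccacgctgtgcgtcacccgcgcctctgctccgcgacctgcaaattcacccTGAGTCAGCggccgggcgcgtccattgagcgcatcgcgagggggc
Nqo1, chr8:107403206-107403455, minus strand: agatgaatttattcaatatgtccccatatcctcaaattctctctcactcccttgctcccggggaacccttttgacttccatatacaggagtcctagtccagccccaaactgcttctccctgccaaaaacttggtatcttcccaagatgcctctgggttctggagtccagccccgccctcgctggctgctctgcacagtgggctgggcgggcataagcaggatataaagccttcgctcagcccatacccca
Gstp1, chr19:4037913-4038162, minus strand: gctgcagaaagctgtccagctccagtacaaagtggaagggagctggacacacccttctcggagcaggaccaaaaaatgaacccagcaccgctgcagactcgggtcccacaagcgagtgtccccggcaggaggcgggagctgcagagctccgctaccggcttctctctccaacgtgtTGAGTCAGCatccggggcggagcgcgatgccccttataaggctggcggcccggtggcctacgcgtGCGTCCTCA
The Gsta3 match TGACATTGC begins at -121 from the start site. Srxn1 has TGAGTCAGC at -45, GCCGACTCA (TGAGTCGGC on the other strand) at -158, and a further match 28 bases after the start. The Gstp1 promoter has the same TGAGTCAGC at -74, and GCGTCCTCA (TGAGGACGC on the other strand) at -9. TGACNNNGC also stands in the promoter of Gclm (at -134) and in 1 of Txnrd1 (at -92), whose sequences are not printed. Neither gene was called in siRNA samples against wild type by limma. Nqo1 has no match in this window, which says only that these letters do not stand there. A match is a description of the letters and not a bound site.

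Treatment with the Cx43 siRNA went with higher Gsta3, Srxn1, Nqo1 and Gclc RNA and lower Gstm1 RNA than in wild type, while the null samples did not pass the test for any of the 10 genes. Against wild type, 4 of 10 genes rose and 1 fell in the siRNA samples (limma, adjusted p under 0.05). Over all tested features 7.38% were called in this comparison, 5.43% as higher and 1.96% as lower. The median log2 difference of the 10 genes was 0.92, against 0.13 over all features, and 9 of the 10 differences were positive. These values include the replicate set term. With replicates 3 and above alone the median was 0.67, and there the siRNA mean lay -0.05 from wild type for Gclm and 0.008 for Gsta4.

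**Figure D1:**
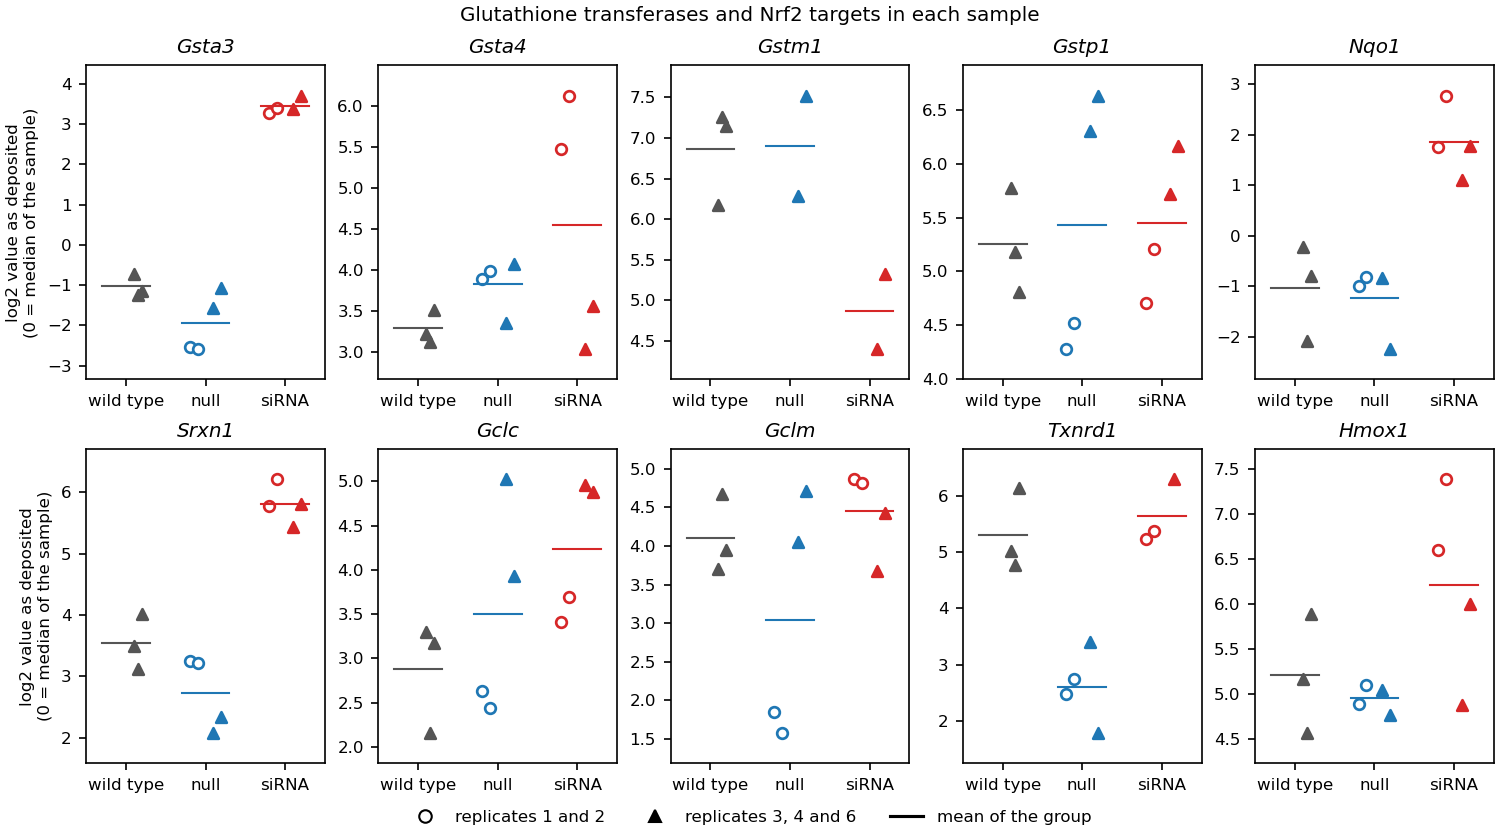
Each panel plots the log2 value (vertical axis, as deposited, 0 is the median of the sample) of 1 gene's main feature in the 3 wild-type, 4 null and 4 siRNA samples; circles are replicates 1 and 2, triangles replicates 3 and above, and bars group means. All 4 siRNA samples lie above every other sample for Gsta3, Srxn1 and Nqo1, and both measured siRNA samples lie below every other sample for Gstm1.

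Gsta3 encodes an alpha-class glutathione transferase that in mice also conjugates aflatoxin epoxide, and it lies on chromosome 1 at 21240565-21265575 (GRCm38.p6). Its log2 values were -0.72, -1.24 and -1.14 in wild type, -2.54, -2.59, -1.57 and -1.06 in null samples, and 3.27, 3.41, 3.39 and 3.71 in siRNA samples. Wild-type and null samples lay below their sample medians, and all 4 siRNA samples lay above them, close to one another and apart from every other sample. The siRNA minus wild-type difference was 4.85 ± 0.41 (SE), a 28.9-fold change with an adjusted p of 0.000168, the 4th smallest p of 20342 features. Between null and siRNA the difference was -5.39 ± 0.34 (adjusted p = 3e-05), the smallest p there, and null minus wild type was -0.53 (95% interval -1.42 to 0.35, adjusted p = 0.559). The order was thus siRNA above wild type and null, with the last pair not separated beyond their spread. Within replicates 1 and 2 the siRNA mean exceeded the null mean by 5.91, and within replicates 3 and 4 by 4.87, while it exceeded wild type by 4.58 among replicates 3 and above. The call against wild type held with each of the 11 samples left out (adjusted p 0.000191 to 0.00465).

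The labels give consecutive replicates opposite dyes, and whether such a pair shared an array is not stated. When replicates 1 and 2, 3 and 4, and 5 and 6 of a group were treated as a random block (consensus correlation 0.467), Gsta3 was the single one of the 10 genes that kept its call against wild type (adjusted p = 0.00271). Near-identical genes of the alpha, mu and pi classes could bind the same oligonucleotide, and probe sequences were not used here, so the assignment of a value to 1 member of a class is uncertain.

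Gsta4 encodes the alpha-class enzyme that conjugates 4-hydroxynonenal, a product of lipid peroxidation. Its values were 3.22, 3.12 and 3.51 in wild type, 3.89, 3.98, 3.35 and 4.07 in null samples, and 5.47, 6.12, 3.03 and 3.55 in siRNA samples. The siRNA samples split, with replicates 1 and 2 above every other sample and replicates 3 and 4 close to the wild-type values. Against wild type the siRNA samples differed by 0.64 (95% interval -0.51 to 1.80, adjusted p = 0.518). Its RNA is taken up again below, where the replicate sets are compared.

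Gstm1, a mu-class transferase abundant in liver, went the other way. It had 7 values, since replicates 1 and 2 of null and siRNA gave none, and the fit used replicates 3 and above alone. These were 6.17, 7.26 and 7.15 in wild type, 6.29 and 7.52 in null samples and 4.4 and 5.33 in siRNA samples. Both siRNA values lay below all others, and wild type and null overlapped. The siRNA samples fell by 1.82 on the log2 scale against wild type (SE 0.43, 3.53-fold, adjusted p = 0.0355), and null exceeded siRNA by 2.04 ± 0.46 (adjusted p = 0.0361). The call against wild type was lost without wild-type replicate 3 (adjusted p = 0.0672), without wild-type replicate 4 (0.0816) and with the consecutive block (0.186). The call between null and siRNA was lost without null replicate 2 (0.0549), without wild-type replicate 4 (0.0552) and with the consecutive block (0.235). Null replicate 2 has no Gstm1 value and the difference stayed at 2.04 without it. That loss reflects the spread and the p-value adjustment shared over features. Without the dye term both Gstm1 calls were lost (0.0727 and 0.0971), as they were without the replicate set term (0.289 and 0.265). The differences without the set term stayed at -1.82 and 2.04.

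Gstp1 encodes the pi-class transferase. Its main feature had values of 5.77, 5.18 and 4.81 in wild type, 4.28, 4.52, 6.30 and 6.63 in null samples, and 4.71, 5.21, 5.72 and 6.16 in siRNA samples. The groups overlapped, and replicates 3 and 4 were higher than replicates 1 and 2 in both null and siRNA samples. The siRNA minus wild-type difference of 0.97 had a 95% interval of 0.02 to 1.93 and an adjusted p of 0.204. A second feature, with 8 values, gave 1.26 (adjusted p = 0.237), and one of its siRNA values, -2.63 in replicate 2, lay far below the others (2.83 and 3.14).

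Nqo1 encodes the quinone reductase that serves as the standard readout of Nrf2 activity, at chromosome 8, 107388225-107403205. Its values were -0.22, -2.08 and -0.80 in wild type, -0.99, -0.82, -0.84 and -2.24 in null samples, and 1.75, 2.77, 1.1 and 1.78 in siRNA samples. All 4 siRNA samples lay above all 7 others, and wild type and null covered the same range. The siRNA samples exceeded wild type by 2.48 ± 0.56 (5.59-fold, adjusted p = 0.0222). The null samples lay below siRNA at -3.07 ± 0.47 (adjusted p = 0.00444), with siRNA above null by 3.17 in replicates 1 and 2 and by 2.98 in replicates 3 and 4. The rise over wild type was no longer called without siRNA replicate 3 (adjusted p = 0.051), siRNA replicate 4 (0.156) or wild-type replicate 4 (0.0738), nor with the consecutive block (0.188).

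Srxn1 encodes sulfiredoxin, which reduces over-oxidised peroxiredoxins, and lies at chromosome 2, 152105524-152111376. Its main feature gave 3.49, 3.12 and 4.01 in wild type, 3.26, 3.22, 2.08 and 2.34 in null samples, and 5.78, 6.21, 5.44 and 5.81 in siRNA samples. A second feature gave 0.83, 1.16 and 1.35, then 1.38, 1.34, 1.00 and 1.89, then 4.11, 4.72, 2.75 and 3.16 in the same order. On both features every siRNA sample lay above every other sample, and wild type and null overlapped. The siRNA minus wild-type differences were 1.96 ± 0.39 (3.88-fold, adjusted p = 0.0132) and 2.30 ± 0.45 (4.94-fold, adjusted p = 0.0112). The first was lost without siRNA replicate 3 (adjusted p = 0.0629) or siRNA replicate 4 (0.114). The second was kept with each sample left out, and with the consecutive block the pair stood at 0.108 and 0.0773. Null minus siRNA was -3.08 ± 0.33 (adjusted p = 0.000618) and -2.28 ± 0.37 (0.00631), and with the consecutive block the first of these was also called (0.0104) and the second was not (0.0609). On the second feature siRNA exceeded null by 3.06 in replicates 1 and 2 and by 1.51 in replicates 3 and 4, where the call was lost (adjusted p = 0.072 with replicates 3 and above alone).

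Txnrd1 encodes the cytosolic thioredoxin reductase, which keeps thioredoxin reduced at the expense of NADPH. Its values were 5.02, 4.77 and 6.14 in wild type, 2.47, 2.74, 3.41 and 1.78 in null samples, and 5.23, 5.39 and 6.30 in siRNA replicates 1 to 3, with replicate 4 not measured and left out of its fit. Here the null samples stood apart, all 4 below every wild-type and siRNA sample, while siRNA and wild type overlapped. Null minus siRNA was -3.06 ± 0.51 (8.33-fold lower, adjusted p = 0.00796). Null minus wild type was -2.57 ± 0.56, with an adjusted p of 0.0619, and -2.20 with the replicate number as a block, where it passed (adjusted p = 0.039). That fit leaves out wild-type replicate 6, which at 6.14 was the highest wild-type value. From wild type the siRNA samples differed by 0.49 (95% interval -0.95 to 1.92). The call between null and siRNA was lost without siRNA replicate 3 (adjusted p = 0.071) and with the consecutive block (0.0659).

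Glutamate-cysteine ligase makes the dipeptide that limits glutathione synthesis, with Gclc as its catalytic and Gclm as its modifier subunit. The main Gclc feature had values of 3.30, 2.16 and 3.18 in wild type, 2.63, 2.44, 5.02 and 3.93 in null samples, and 3.41, 3.69, 4.96 and 4.88 in siRNA samples. Every siRNA sample exceeded every wild-type sample, the closest pair by little, and replicates 3 and 4 were higher than replicates 1 and 2 in null and siRNA samples alike. The siRNA minus wild-type difference was 2.12 ± 0.43 with the replicate set in the model (4.34-fold, adjusted p = 0.0143), 2.04 among replicates 3 and above, and 1.29 without the replicate set (adjusted p = 0.542). The null samples differed from wild type by 1.39 (adjusted p = 0.131) and from siRNA by -0.73 (0.236). The rise over wild type was lost without siRNA replicate 4 (adjusted p = 0.0924), with the consecutive block (0.125) and when wild-type replicates 1 and 2 were moved back to their rows and added (0.116). The second Gclc feature scattered within groups, from -0.39 to 4.17 in wild type and from -0.93 to 3.97 in null samples, with null replicate 3 not measured, and its difference of 1.94 had an SE of 1.40 (adjusted p = 0.455).

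Gclm had values of 3.70, 4.67 and 3.95 in wild type, 1.85, 1.58, 4.05 and 4.71 in null samples, and 4.86, 4.82, 3.68 and 4.43 in siRNA samples. Null replicates 1 and 2 lay below all 9 other samples, and null replicates 3 and 4 inside the range of the siRNA samples. Against wild type the siRNA samples differed by 0.87 (95% interval -0.67 to 2.42, adjusted p = 0.510), so the rise called for Gclc was not called for its partner. Whether the 2 subunits differed in their response was not tested.

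Hmox1 encodes heme oxygenase, which breaks heme down to biliverdin, carbon monoxide and iron. Its values were 5.17, 4.57 and 5.89 in wild type, 4.89, 5.10, 5.05 and 4.77 in null samples, and 6.6, 7.38, 4.88 and 5.996 in siRNA samples. The null values were tight and inside the wild-type range, and siRNA replicates 1, 2 and 4 exceeded every wild-type sample while replicate 3 did not. The differences were 0.65 for siRNA minus wild type (95% interval -0.47 to 1.77, adjusted p = 0.494) and -1.26 for null minus siRNA (adjusted p = 0.101).

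**Figure D2:**
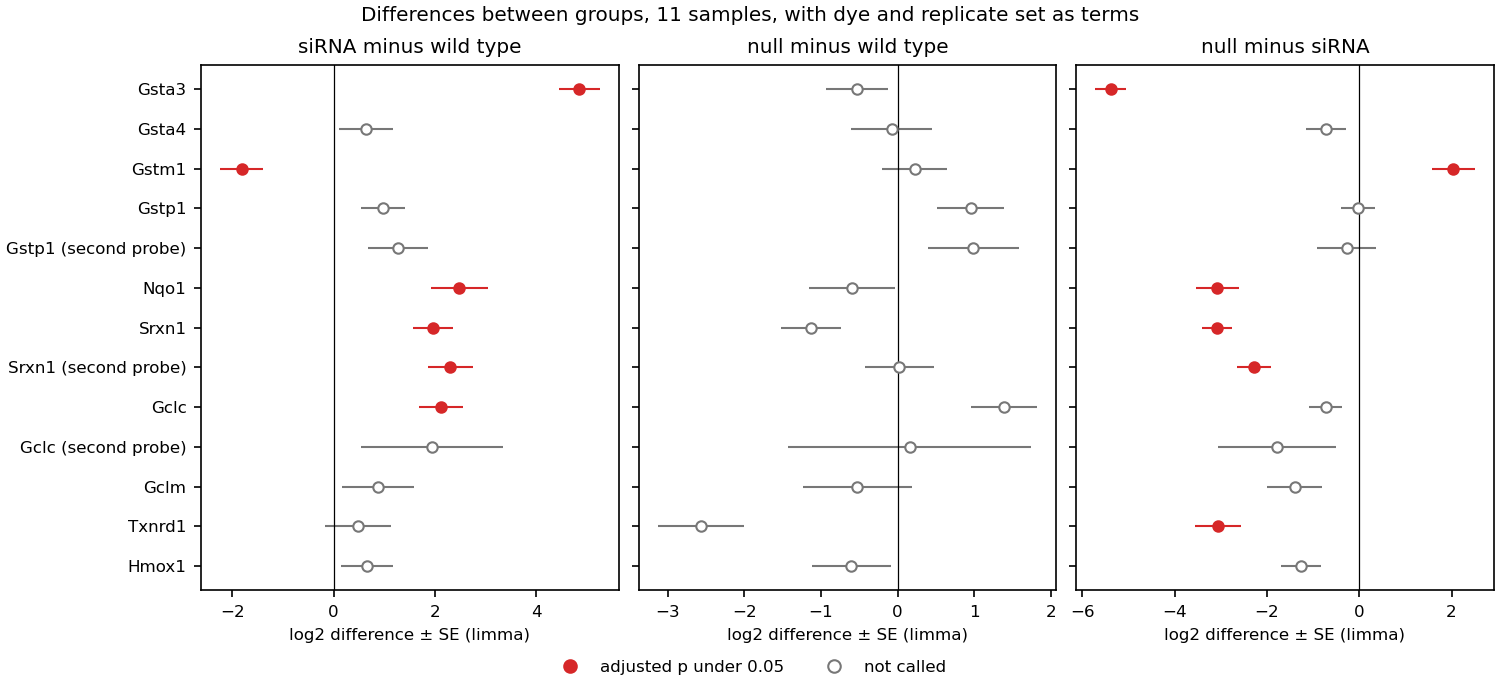
Points give the log2 difference between groups for each of the 13 features and bars its SE, from limma over 11 samples with dye and replicate set as terms; filled points have an adjusted p under 0.05. Gsta3 lies farthest from 0 in the outer panels, at 4.85 and -5.39, and the middle panel, null minus wild type, has no filled point.

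Loss of the gene and siRNA treatment share the wild-type controls, so their values are set side by side. In null samples 0 of 10 genes were called against wild type by limma, where 0.59% of all features were called (120). With the replicate number as a block 1 of the 10 (Txnrd1, adjusted p = 0.039) and 368 features were called. That fit also leaves out wild-type replicate 6. With this sample left out and no such block, 0 of the 10 and 223 features were called. In the fit to all 11 samples 3 of the 10 had an unadjusted p under 0.05 (Txnrd1, Gclc and Srxn1). The median difference was -0.53 (0.22 with replicates 3 and above alone), against 0.27 over all features, and 7 of the 10 were negative. The 4 genes that rose with siRNA stood in null samples at -0.53 (Gsta3), -0.59 (Nqo1), -1.13 (Srxn1, adjusted p = 0.166) and 1.39 (Gclc). Their siRNA differences were 4.85, 2.48, 1.96 and 2.12. The direct comparison of null with siRNA samples called 4 of 10 genes lower in null (Gsta3, Srxn1, Nqo1 and Txnrd1) and Gstm1 higher. Over all features 5.88% were called there (1196, or 2282 with that block), 3.61% higher and 2.27% lower in null, and the median of the 10 genes was -1.33 against 0.11. With the consecutive block 2 of the 10 were called, Gsta3 (adjusted p = 0.0006) and Srxn1 (0.0104), with Nqo1 at 0.0839.

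The replicate sets were then compared, since null and siRNA each have 2 samples in replicates 1 and 2 and 2 in replicates 3 and 4. Gsta3, Nqo1, Srxn1 and Txnrd1 separated the groups in both sets: siRNA exceeded null by 5.91 and 4.87, 3.17 and 2.98, 2.75 and 3.41, and 2.70 and 3.71 respectively, on their main features. The second Srxn1 feature gave 3.06 and 1.51 (change 1.55 ± 0.53, adjusted p = 0.142), and the second Txnrd1 value rests on 1 siRNA sample. The 4 genes that separated the groups in both sets had been called from these same samples. On their main features Gclm, Gsta4, Hmox1 and Gclc overlapped between the groups in replicates 3 and 4, and Gstp1 was lower in siRNA there. The siRNA mean of Gclm was 3.12 above the null mean in replicates 1 and 2 and -0.33 from it in replicates 3 and 4. For Gsta4 the corresponding values were 1.86 and -0.42, for Hmox1 1.99 and 0.52, for Gclc 1.01 and 0.44, and for Gstp1 0.57 and -0.52. The change of the null minus siRNA difference between the sets was 3.45 ± 0.61 for Gclm (limma interaction, adjusted p = 0.0135) and 2.28 ± 0.54 for Gsta4 (adjusted p = 0.0454). These were 2 of the 9 genes that could be tested, where 3.62% of 16414 features were called. The Gclm call was lost without null replicate 2 (adjusted p = 0.0974), null replicate 4 (0.0784), siRNA replicate 1 (0.0695), siRNA replicate 3 (0.102) or siRNA replicate 4 (0.0578). The Gsta4 call was lost without any 1 of the 8 null and siRNA samples (adjusted p 0.111 to 0.225) and without the dye term (0.0642). Each set of a group is a single pair of consecutive samples, so set and pair cannot be told apart.

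**Figure D3:**
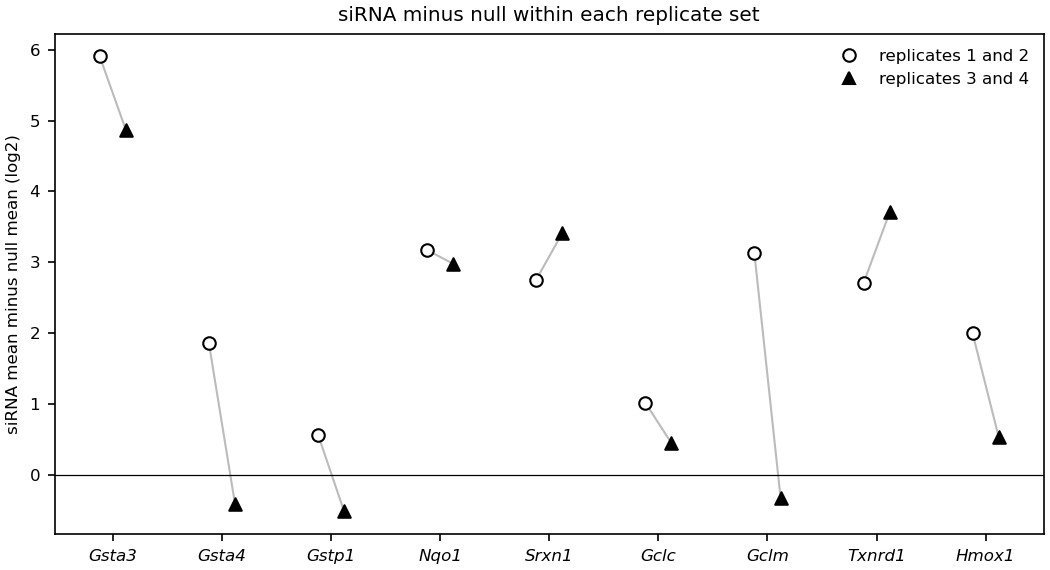
The vertical axis is the siRNA mean minus the null mean (log2) of each gene's main feature, circles for replicates 1 and 2 and triangles for replicates 3 and 4, each from at most 2 samples per group. Gclm drops from 3.12 to -0.33 and Gsta4 from 1.86 to -0.42, while the main features of Gsta3, Nqo1, Srxn1 and Txnrd1 stay at 2.70 or higher in each set; Gstm1 has no value in replicates 1 and 2 of these groups.

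Among the regulators of the pathway, Nfe2l2, which encodes Nrf2 itself, was the only one of 11 tested genes called against wild type in siRNA samples, at 1.52 ± 0.41 (limma, adjusted p = 0.0424). Its values were 1.70, 1.53 and 2.65 in wild type, 3.42, 3.45, 3.25 and 3.23 in null samples, and 3.34, 3.77, 3.03 and 3.84 in siRNA samples. Every null and siRNA sample lay above every wild-type sample, and null and siRNA overlapped. Null minus wild type was 1.36 (adjusted p = 0.116) and null minus siRNA was -0.16 (0.816). Keap1, the Nrf2 repressor, stood at -0.21 for siRNA minus wild type (adjusted p = 0.780), and the list's median was 0.68. No gene of this list was called in the other comparisons, the nearest between null and siRNA being Maff, a small Maf protein, at -1.86 (adjusted p = 0.0657).

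Of 20 other Nrf2 targets tested, 3 rose in siRNA samples against wild type and none fell, with a median of 0.83. Gsr, the reductase that regenerates glutathione, had values of 2.63, 1.85 and 2.48 in wild type, 0.91, 1.11, 3.14 and 3.32 in null samples and 1.99, 2.35, 4.04 and 4.66 in siRNA samples. Its siRNA samples overlapped wild type in replicates 1 and 2 and lay above it in replicates 3 and 4. The difference was 2.06 ± 0.39 in the model (adjusted p = 0.00975) and 2.03 among replicates 3 and above. Slc7a11, the cystine importer that feeds glutathione synthesis, rose by 2.71 ± 0.66 (adjusted p = 0.0355), and all 4 of its siRNA values (-0.49 to 1.13) lay above the 3 wild-type values (-4.24 to -1.94). Me1, the NADPH-producing malic enzyme, rose by 1.67 (adjusted p = 0.037) with the replicate set in the model, although its group means were 5.23 in wild type and 5.12 in siRNA samples. Its siRNA replicates 1 and 2 were at 3.65 and 3.55 and replicates 3 and 4 at 6.56 and 6.71, so this call rests on the replicate set term. Against siRNA, 5 targets were lower in null samples, with a median of -0.60 over the 20 genes. They were Slc7a11 at -3.28 (adjusted p = 0.028), from replicates 1 and 2 alone in null, Blvrb, a biliverdin reductase, at -2.03 (0.00654), the aldo-keto reductase Akr1b8 at -2.08 (0.0137), the glutathione conjugate pump Abcc1 at -1.99 (0.0118) and Taldo1 of the pentose phosphate pathway at -1.72 (0.0284). With the consecutive block all 5 missed the threshold (adjusted p 0.0963 to 0.192), as did the 3 rises over wild type (0.0967 to 0.206).

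Of 16 other glutathione transferases tested, 4 fell and 1 rose in siRNA samples against wild type, with a median of 0.06. The microsomal Mgst3 fell by 2.58 on the log2 scale (adjusted p = 0.0173), the mu-class Gstm2 by 2.27 (0.0398), Gsto2 by 1.90 (0.0324) and the prostaglandin D synthase Hpgds by 1.82 (0.048). Gstm2 thus went the way of Gstm1, and among replicates 3 and above its siRNA mean lay -2.89 from wild type. Gstm3 was called higher at 1.66 (adjusted p = 0.0487), with group means of -0.87 in siRNA and -0.998 in wild type and a difference of 1.82 among replicates 3 and above. Between null and siRNA, Gsto2, Hpgds, Gstk1 and Mgst3 were higher in null (1.78, 1.82, 1.36 and 1.84).

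Of 14 genes of glutathione synthesis and use outside the ligase, 0 were called in siRNA against wild type by limma, with the smallest p for Hagh (-1.85, adjusted p = 0.139), and the median was 0.06. Against siRNA, Slc3a2 (-1.30), the partner chain of Slc7a11, and the glutaredoxin Glrx3 (-1.29) were lower in null, and Oplah, the oxoprolinase, was higher (1.58). Among 13 other antioxidant enzymes Sod2, the mitochondrial superoxide dismutase, was called in siRNA samples, at 1.89 ± 0.49 (adjusted p = 0.0396), and the list's median was -0.65. In null samples against wild type none of the tested genes of these 5 lists was called. The smallest p of each list there belonged to the glutaredoxin Glrx3 (-1.75, adjusted p = 0.0619), Nfe2l2, the peroxiredoxin Prdx1 (5.32, adjusted p = 0.117, with wild-type values from -0.72 to 7.25), Gstm3 (1.19, adjusted p = 0.201) and the mitochondrial thioredoxin reductase Txnrd2 (1.02, adjusted p = 0.216). With the consecutive block none of the calls on these 5 lists was kept, neither in siRNA samples against wild type, where the nearest was Mgst3 (adjusted p = 0.0787), nor between null and siRNA, where it was Blvrb (0.0963).

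**Figure D4:**
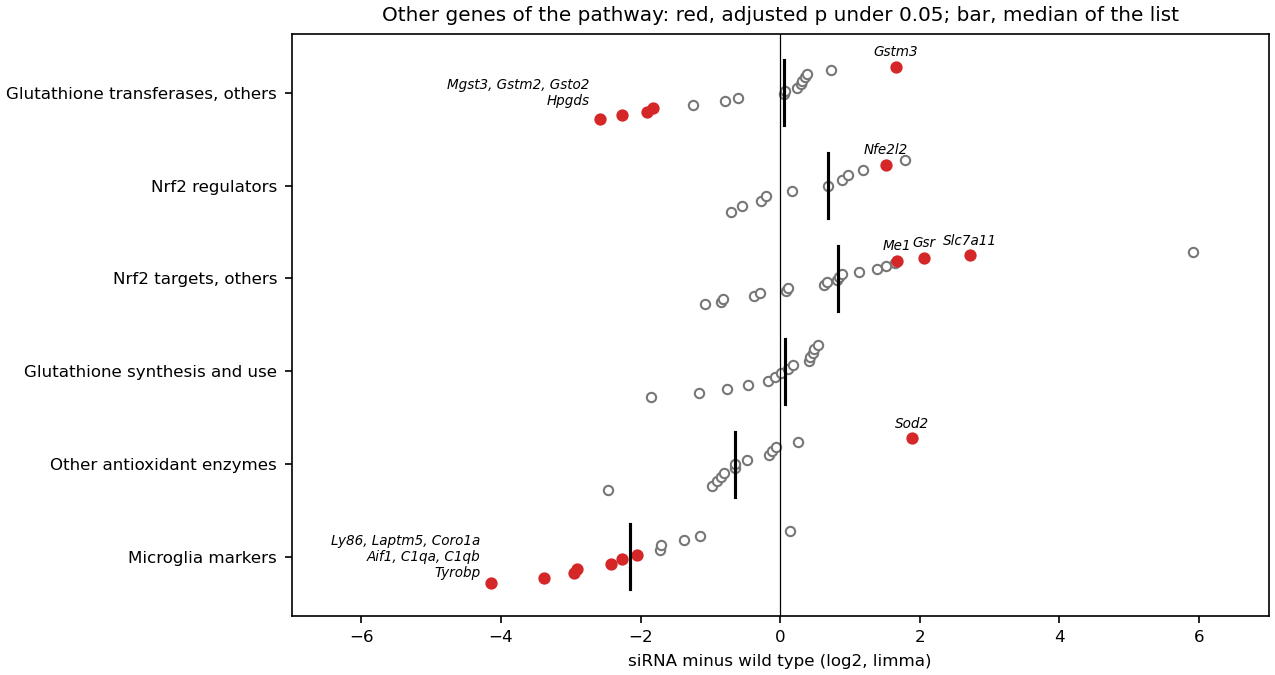
Each point is 1 gene's siRNA minus wild-type difference (log2, limma), grouped by list, with the list's median as a bar and genes with an adjusted p under 0.05 filled and named. Nrf2 targets and regulators lie mostly to the right of 0 (15 of 20 and 7 of 11), and the median over all features is 0.13. Other glutathione transferases and genes of glutathione synthesis and use lie on both sides (9 of 16 and 8 of 14 to the right). Of the other antioxidant enzymes 2 of 13 lie to the right, and 11 of 12 microglia markers lie to the left. The open point at 5.91 is Prdx1 (limma, adjusted p = 0.0739), singled out after its values were seen. Its wild-type values ran from -0.72 to 7.25.

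The genes whose values across the 11 samples were most like those of Gsta3 were compared by Pearson correlation over 9174 named features with all 11 values, as a description of samples that share groups, dyes and replicate sets. The nearest 5 were Cd274 (r = 0.967), which encodes the checkpoint ligand PD-L1, the interferon-stimulated exonuclease gene Isg20 (0.964), Arrdc4 (0.961), the chemokine Cxcl11 (0.961) and the class I histocompatibility gene H2-Q10 (0.952). Srxn1 followed at rank 19 (0.909) and Nqo1 at rank 36 (0.878). The other Nrf2 targets compared lay farther away, Hmox1 at 0.649, Gclm at 0.574 and Gclc at 0.549, as did Gsta4 (0.42) and Gstp1 (0.206). Txnrd1 and Gstm1 lacked some of the 11 values and were not compared. Cxcl11 had wild-type values from -2.01 to -0.84 and siRNA values from 2.30 to 4.63, and Cd274 from -0.34 to 0.54 and from 2.13 to 3.06.

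Markers of other cells also moved with the siRNA samples. Of 12 microglia markers tested, 7 fell against wild type (Laptm5, C1qa, Coro1a, Ly86, Aif1, C1qb and Tyrobp, by 2.04 to 4.14 on the log2 scale) and none rose, with a median of -2.16. The mean log2 level over the 11 of them measured in all samples was 3.57 to 4.08 in wild type, 2.25 to 4.69 in null and 1.81 to 2.38 in siRNA samples. The null samples split by replicate set, at 4.45 and 4.69 in replicates 1 and 2 and at 2.25 and 3.38 in replicates 3 and 4. Null replicates 3 and 4 thus also lay below every wild-type sample, the lower one inside the siRNA range. Of 10 astrocyte markers Aldoc fell by 2.34 and Aldh1l1 rose by 1.82, and the mean level over 6 of them was 3.25 to 3.94 in wild type, 2.99 to 3.91 in null and 1.36 to 3.12 in siRNA samples, lowest in siRNA replicates 1 and 2 (1.36 and 1.88). Col3a1 and Dcn, with 2 siRNA values each, fell among 7 fibroblast and mural markers and Tubb3 among 3 neuron markers. The median of the 7 fibroblast and mural markers against wild type was -1.67 in siRNA and -1.84 in null samples. None of 7 oligodendrocyte lineage markers and not the 1 endothelial marker, Kdr, was called. In null samples against wild type no marker of these 6 lists was called, the nearest being Tubb3 at -1.31 (adjusted p = 0.093). Against siRNA, 6 of the 12 microglia markers, the astrocyte markers Aldoc (3.30) and Sox9 (1.31) and the oligodendrocyte lineage marker Sox10 (1.66) were higher in null. With the consecutive block Laptm5 (adjusted p = 0.0116) and Coro1a (0.0492) kept their calls against wild type, the other 5 microglia markers stood at 0.0517 to 0.131, and Aldoc, Aldh1l1, Col3a1, Dcn and Tubb3 at 0.129 to 0.229. Between null and siRNA, Aldoc (0.0336) and Laptm5 (0.03) kept theirs. The part of these shifts in the Gsta3, Srxn1, Nqo1, Gclc and Gstm1 results was not tested. In such bulk samples fewer cells of a type and less RNA per cell cannot be told apart.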

How the data were processed

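The authors deposited 1 log2 value per feature and sample. How they scanned, corrected, filtered and normalized the arrays is not stated in the sources used. Missing values carry no reason, and signal over background was not analysed here, so the number of samples limits the precision. Of 33600 features, 18179 have 1 gene symbol, 87 several and 15334 none here.

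Differences came from limma 3.58.1 (lmFit and eBayes, R 4.3.3, two-sided) over 11 samples, with group, dye and replicate set (1 and 2 against 3 and above) as terms. This carries the set shift measured in null and siRNA samples over to wild type, which has 3 samples, all in the later set. Features with at least 2 values per group were tested, p-values were adjusted by Benjamini-Hochberg per comparison, and a feature was called at an adjusted p under 0.05. The fit was also run on simulated data with independent noise, no replicate set shift and no missing values. That run does not cover such shifts, linked samples or gaps. A gene is represented by its tested feature with the most values, then the highest mean. Named are all 10 genes with every feature, Gja1, and from each list the genes called, up to 4 per comparison by smallest p, else the smallest p; among the marker lists, all 7 called microglia genes are named. Blvrb, Akr1b8, Abcc1, Taldo1 and Slc7a11 are all given for their comparison, which goes past that number, as is Keap1, chosen after its value was seen. The genes and lists were chosen with earlier results of these data known.

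Same-numbered samples deviated together (r from 0.121 to 0.647), every pair over 0.1, so a fit with the number as a block was run too. Each r was also taken with the other number of the same set. Between null and siRNA replicates 1 and 2 the other number gave nearly the same r (0.598 against 0.621 and 0.589 against 0.638). In the later replicates it gave less (0.483 against 0.647 and 0.399 against 0.565), and with wild type -0.196 to -0.0513. Same-numbered samples also carried the same dye, so these values cannot show that the number pairs the samples. The labels do not say what a number shares. In wild-type replicates 1 and 2, 831 of 1259 placed columns of print blocks fitted the other samples better when moved by 1 row, and these moved values entered as an alternative. Promoter sequences and gene positions are RefSeq's for GRCm38.p6; no source used names the build behind the array annotation.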

Additional observations from a re-analysis of the deposited data

Results flagged for a closer look

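In the null samples Nqo1 replicate 4, at -2.24, lay apart from the other 3, which were at -0.99, -0.82 and -0.84. The gap to its nearest neighbour was 0.879 of the whole range, past Dixon's critical value for 4 samples. In all, 20 groups of 4 were looked at, and chance passes about 1 in 20 of them. The null minus siRNA difference changed between the replicate sets by 3.45 for Gclm and by 2.28 for Gsta4 (limma interaction), with siRNA above null in replicates 1 and 2 and at or below it in replicates 3 and 4.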

How the results depend on the processing

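Gsta3 kept its call under every alternative run, between 4.49 and 5.25 against wild type and between -5.91 and -4.87 for null minus siRNA, 1 sample left out or not. Counts of called features, 1502 for siRNA and 120 for null against wild type and 1196 between null and siRNA, moved more. They were 66, 0 and 75 without the replicate set term, 204, 1 and 106 with consecutive samples as a random block, 779, 1 and 160 with all 14 samples as deposited, and 955, 0 and 673 with the 2 moved wild-type columns added. For null against wild type and against siRNA they were 368 and 2282 with the replicate number as a block, without wild-type replicate 6. They were 877 and 1893 with replicates 3 and above alone. Null against wild type gave 308 after quantile normalization, 73 with all 11 values required and 21 with array weights, and null against siRNA gave 2769 with array weights and 5529 in replicates 1 and 2 alone.

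Of the 10 genes, 5 were called for siRNA against wild type, and 1, 1, 3 and 3 without the set term, with the consecutive block, with all 14 samples and with the moved columns. Between null and siRNA 5 became 3, 2 and 2 under the first 3 of these, 3 with all 11 values required and 8 in replicates 1 and 2 alone. With all 11 values required, Gstm1 (7 values) and Txnrd1 (10 values) were not tested, and Gstm1 was not tested in replicates 1 and 2 alone. The replicate block called 1 gene for null against wild type (Txnrd1) and changed no other call on the 13 features; the interaction called 1 without the dye term. The genes' median for siRNA against wild type was 1.46 with all 11 values required, over the genes without Gstm1 and Txnrd1. For null against wild type it was 0.22 in replicates 3 and above, 0.10 with all 14 samples and -0.06 with the moved columns, and for null minus siRNA -0.44 in replicates 3 and above and -2.70 in replicates 1 and 2. The second Gclc feature reversed there to 0.82. Apart from these changes in which genes were tested, the cause of the shifts was not tested.

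Leaving out 1 sample gave 225 to 1589, 1 to 223 and 299 to 1839 called features, and 144 to 1318 for the interaction. It gave 1 to 5, 0 to 0, 3 to 5 and 0 to 2 called genes, with medians of 0.76 to 1.56, -0.99 to -0.18, -1.89 to -0.95 and 0.83 to 1.2. Over each feature and comparison, 442 of 480 values under other settings stayed on their side of the threshold. Of the rest 30 lost a call, 7 gained one and 1 reversed. With 1 sample left out, 504 of 530 stayed on their side, 24 lost a call and 2 gained one. Values that stayed could still change sign. Without the replicate set term the second Gstp1 feature went from 1.26 to -0.60 for siRNA against wild type. With 1 sample left out the Nqo1 interaction ran from -0.56 to 0.95.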
